A study of Mus musculus with 12 samples.

Results

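TGF-beta is a secreted growth factor that cells deposit in the matrix in a latent form. Once released, it joins the receptors TGFBR2 and TGFBR1, and TGFBR1 then phosphorylates Smad2 and Smad3, which enter the nucleus with Smad4. The pathway curbs itself through Smad7, which blocks the receptor, and SnoN, a corepressor of Smad target genes that Skil encodes. In tumours it is known for shaping the stroma and for restraining T cells. The 9 genes described here were the rows of the deposited count table named Tgfb1, Tgfb2, Tgfb3, Tgfbr1, Tgfbr2, Smad3, Smad7, Skil and Inhba, out of 54532 genes in all. Inhba encodes the subunit of activin A, a related ligand that also signals through Smad2 and Smad3. All 9 passed the filter on low counts, which kept 16164 genes.

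The libraries came from tumours of wild-type B16F10, a melanoma line of the mouse, grown in the leg skin of male mice aged 8 to 12 weeks and taken on day 14. The 6 Ctrl libraries were from Trex1 wt/fl-R26CreERT2-ki/wt hosts and the 6 iKO libraries from Trex1 fl/fl-R26CreERT2-ki/wt hosts. Every host, Ctrl included, carried 1 copy of a tamoxifen-dependent Cre placed at the Rosa26 locus, which is active in most tissues, and was given 1 mg of tamoxifen daily for 3 days from day 5. The Trex1 gene encodes a cytosolic DNase, and the floxed allele could be lost only from host cells, so the comparison asks how the tumour changes when its host loses both copies rather than 1. The labels call the material sorted tumour tissue negative for CD45 and CD31, markers of leukocytes and endothelium, whereas the protocol text has cells negative for one or the other. Ptprc, which encodes CD45, was at 0.158 to 15.5 CPM in Ctrl and 17.4 to 345 CPM in iKO (CPM stands for counts scaled to a common library size after TMM adjustment). Pecam1, which encodes CD31, was at 3.06 to 5.07 CPM in Ctrl and 3.87 to 14.8 CPM in iKO. The labels do not say which mouse gave which library, so p-values measure the spread between libraries, and separate mice could vary more.

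Library totals ran from 34342436 to 45828565 counts in Ctrl and from 29808243 to 35520399 in iKO. Trex1 had 0 counts in all 12 libraries, so it could not serve to check the genotypes. Of 10 leukocyte marker genes 9 were higher in iKO by the test used below. The summed level of all 10 was 297 to 491 CPM in Ctrl and 435 to 2104 in iKO. Arhgdib, the marker that did not pass, gave 233 to 276 CPM of the Ctrl sum and 220 to 263 CPM of the iKO sum. For macrophages 9 of 10 were higher (14.6 to 308 CPM in Ctrl, 213 to 1876 in iKO), and for T cells all 9 that were tested (0.163 to 4.63 CPM, 9.23 to 147, summed over all 10 of the list). Of 10 endothelial genes 3 were higher (44.3 to 50.5 CPM, 39.2 to 90.2), of 3 platelet genes tested 1 (2.03 to 15.5 CPM, 7.65 to 29.9, summed over all 6 of the list), and 7 of 8 pigment cell genes were lower (22647 to 23034 CPM, 15712 to 22551). Fibroblast markers separated single libraries more than groups: 2 of 10 passed, and their sum was 2294 to 2617 CPM in Ctrl but 14858 in iKO 2, 10274 in iKO 5, 637 in iKO 6 and 1914 to 2470 in the other iKO libraries. No marker was at 0 in all 12 libraries. Ctrl 5 and iKO 1 lay between the groups on the first principal component (-17.1 and -0.973, against -91.6 to -74.4 and 76.3 to 104). In iKO 2 and iKO 3 Xist was at 219 and 117 CPM and 4 Y-linked genes summed to 44 and 0 counts, although the labels give male hosts. Those 4 genes summed to 107 to 254 counts in Ctrl, 239 in iKO 1 and 1298 to 1513 in iKO 4 to 6. Xist was at 8.38 CPM in iKO 4 and at most 1.18 CPM in the remaining libraries.

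Of the 9 genes 6 rose in iKO, none fell and 3 did not pass the test (edgeR's quasi-likelihood test, adjusted over all genes, threshold 0.05). They were the ligand genes Tgfb1 and Inhba, the receptor gene Tgfbr2, the signal transducer Smad3 and both feedback genes, Smad7 and Skil. Tgfb2, Tgfb3 and Tgfbr1 made up the rest. The median log2 fold change of the 9 was 0.81, against 0.023 over all tested genes. Of all tested genes 25.0% were called higher and 21.4% lower, which turned to 22% and 26.7% under upper quartile scaling, where the same 6 genes passed. The iKO libraries lay wholly above the Ctrl libraries for 5 of the 9 genes (Tgfbr2, Smad3, Smad7, Skil and Inhba), which was so for 11.8% of all tested genes. The same 6 genes passed without iKO 2 and iKO 3, with log2 fold changes of 1.36 for Tgfb1, 2.12 for Inhba, 0.83 for Tgfbr2, 0.49 for Smad3, 0.73 for Smad7 and 0.93 for Skil. They also passed without Ctrl 5 and iKO 1, at 1.56, 2.57, 1.00, 0.40, 0.92 and 0.91 in that order. In bulk RNA, more cells of a type and more RNA per cell cannot be told apart.

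**Figure D1:**
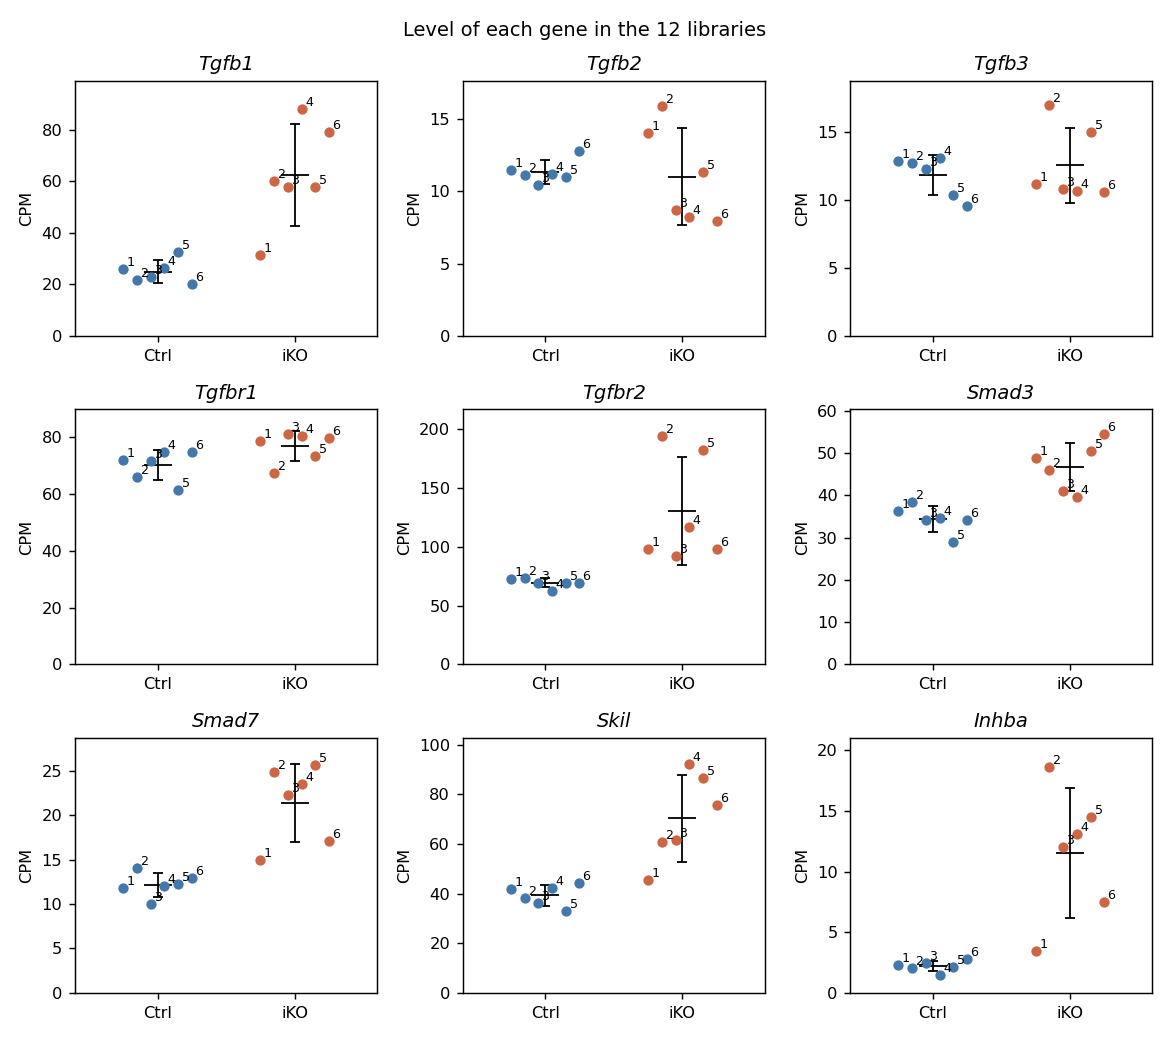
Level of each of the 9 genes in CPM (vertical axes, from 0) in the Ctrl and iKO libraries; points are libraries with their replicate number, and black bars the mean and SD (n = 6). Tgfb1 in iKO 1, at 31.5 CPM, is the only iKO value among the 6 genes that rose that lies within the Ctrl range.

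The stretches of DNA just before the start sites of 4 of these genes are shown to set the sequence beside 3 ligand and receptor genes that rose (Tgfb1, Inhba and Tgfbr2) and 1 that did not pass (Tgfbr1). The scan covered RefSeq (GRCm38.p6) promoters of 6 of the 9 genes, in 7 windows. Each run holds the 250 bases before the start site, 5′ to 3′ on the gene's own strand. Capitals mark GGGCGG (the GC box bound by Sp1) and CAGAC (a Smad-binding CAGA box) on either strand.
Tgfb1, chr7:25686752-25687001, plus strand: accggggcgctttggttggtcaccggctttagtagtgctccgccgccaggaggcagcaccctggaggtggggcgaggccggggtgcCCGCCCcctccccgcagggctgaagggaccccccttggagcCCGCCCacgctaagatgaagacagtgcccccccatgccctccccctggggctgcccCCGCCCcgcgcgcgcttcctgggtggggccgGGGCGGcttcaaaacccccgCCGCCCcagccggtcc
Inhba, chr13:16011601-16011850, plus strand: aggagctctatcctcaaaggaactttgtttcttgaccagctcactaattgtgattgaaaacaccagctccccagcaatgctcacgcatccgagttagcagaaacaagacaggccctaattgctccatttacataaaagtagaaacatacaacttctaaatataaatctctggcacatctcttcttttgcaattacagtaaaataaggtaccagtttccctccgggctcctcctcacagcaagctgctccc
Tgfbr2, chr9:116175364-116175613, minus strand: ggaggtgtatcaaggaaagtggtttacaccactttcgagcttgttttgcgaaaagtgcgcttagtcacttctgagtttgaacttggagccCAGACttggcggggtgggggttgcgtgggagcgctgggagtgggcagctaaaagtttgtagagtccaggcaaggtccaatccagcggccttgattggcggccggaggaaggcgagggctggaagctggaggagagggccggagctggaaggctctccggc
Tgfbr1, chr4:47352972-47353221, plus strand: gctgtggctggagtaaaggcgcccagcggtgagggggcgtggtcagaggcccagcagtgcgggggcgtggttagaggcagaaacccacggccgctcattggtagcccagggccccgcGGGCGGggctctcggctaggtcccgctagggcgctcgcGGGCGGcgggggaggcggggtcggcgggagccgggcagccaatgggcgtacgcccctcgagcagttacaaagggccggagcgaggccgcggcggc
The Tgfb1 stretch held 5 GC boxes and was 75.2% G and C. Tgfbr1 was similar in base composition (74.8%) and held 2. A further Tgfbr1 window in the RefSeq table, chr4:47385966-47386215, not printed, was 52.8% G and C and held 1 CAGA box and no GC box. Tgfbr2 held 1 CAGA box and no GC box, and Inhba, at 43.2% G and C, held neither. Among 32851 mouse promoter stretches of this length, 32.7% held GGGCGG and 42.2% CAGAC. None of the 7 windows held TGANTCA, the AP-1 site (6.75% of all promoters), or the interferon-stimulated response element core (2.98%). Nor did any of them hold GTCTAGAC, a palindromic Smad site (0.167%). Of the other windows not printed, that of Smad3 held 2 GC boxes and no CAGA box. That of Tgfb2 held 2 CAGA boxes and no GC box. Tgfb3 and Skil had no entry among the RefSeq promoters. The Smad7 promoter was left out of the scan, so its sites are not known here. A match describes letters only and is not a binding site.

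The ligands differed in their response. Tgfb1 (ENSMUSG00000002603, mm10 chromosome 7, 25687002 to 25705077), the isoform made widely by immune cells, was at 26.0, 21.7, 23.0, 26.2, 32.6 and 20.2 CPM in Ctrl 1 to 6 and at 31.5, 60.0, 57.7, 88.1, 57.6 and 79.1 CPM in iKO 1 to 6. All iKO libraries but iKO 1 were above the highest Ctrl library, which was Ctrl 5. The means were 25.0 ± 4.43 and 62.3 ± 19.7 CPM (SD, n = 6 each). The difference was 1.32 ± 0.21 on the log2 scale (SE; 2.50-fold; edgeR, adjusted p = 0.000440).

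Tgfb2 (ENSMUSG00000039239, chromosome 1, 186622792 to 186705989), known for its part in development and in the eye, was at 11.5, 11.1, 10.4, 11.2, 11.0 and 12.8 CPM in Ctrl and at 14.0, 15.9, 8.70, 8.24, 11.3 and 7.97 CPM in iKO. The iKO libraries spread to both sides of Ctrl, with 2 above all Ctrl libraries and 3 below. It differed by -0.039 (log2), with a 95% interval from -0.39 to 0.31 (edgeR, adjusted p = 0.864). Tgfb3 (ENSMUSG00000021253, chromosome 12, 86056745 to 86079041), known for its role in palate fusion, was at 12.9, 12.7, 12.3, 13.1, 10.4 and 9.58 CPM in Ctrl and at 11.2, 17.0, 10.8, 10.7, 15 and 10.6 CPM in iKO. It was highest in iKO 2 and iKO 5, the libraries with the highest fibroblast sums. Its log2 fold change was 0.083 (interval -0.21 to 0.38; edgeR, adjusted p = 0.653), and it was -0.13 without those 2 libraries. Of the exon bases of Tgfb3 12.4% are shared with unclassified or noncoding genes on the other strand, whose reads the counting could not set apart, as the libraries kept no strand.

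The ligand mix shifted towards Tgfb1. Per kilobase of gene length, the 3 ligand genes together gave 9.03 to 11.4 CPM per kb in Ctrl and 12 to 22 in iKO. The share of Tgfb1 in that sum was 47.1, 43.2, 45.7, 47.3, 56.5 and 44.3% in Ctrl and 52.2, 60.5, 70.9, 79.3, 64.1 and 77.7% in iKO. Only iKO 1 fell within the Ctrl range. Tgfb2 went from a mean share of 19.0% to 11.3% and Tgfb3 from 33.7% to 21.3%, while their own levels did not pass the test. These shares follow from the 3 levels above and were not tested separately. Their size also depends on the gene lengths, which count all annotated exon bases.

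**Figure D2:**
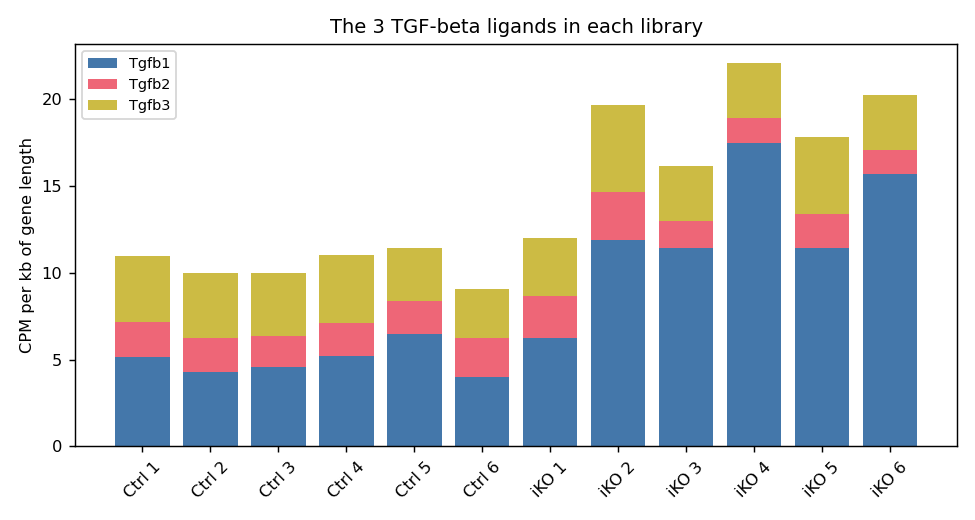
Stacked bars of the 3 TGF-beta ligand genes in CPM per kb of gene length (vertical axis) for each library (horizontal axis). The Tgfb1 segment is taller in iKO 2 to 6 than in any Ctrl library, in iKO 2 the Tgfb3 (5.02) and Tgfb2 (2.75) segments are the tallest of theirs too, and the bar of iKO 1, at 12 CPM per kb in all, is close to the tallest Ctrl bar, 11.4 in Ctrl 5.

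Inhba (ENSMUSG00000041324, chromosome 13, 16011851 to 16031621) rose most of the 9 genes, from a low level. It was at 2.33, 2.08, 2.50, 1.48, 2.12 and 2.76 CPM in Ctrl and at 3.49, 18.6, 12, 13.1, 14.5 and 7.53 CPM in iKO, from 547 and 2243 counts per group. All iKO libraries were above all Ctrl libraries, and iKO 1 stood closest to them. The log2 fold change was 2.38 ± 0.33 (SE; 5.19-fold; edgeR, adjusted p = 0.000112).

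The receptor genes, whose products act as a complex, differed too. Tgfbr2 (ENSMUSG00000032440, chromosome 9, 116084293 to 116175360), the receptor that binds the ligand first, was at 73.0, 73.5, 69.2, 62.6, 69.6 and 69.6 CPM in Ctrl. In iKO it was at 97.9, 194, 92.3, 117, 182 and 97.9 CPM, with iKO 2 and iKO 5 far above the other 4. The means were 69.6 ± 3.91 and 130 ± 45.6 CPM (SD, n = 6). The difference was 0.90 ± 0.19 on the log2 scale (SE; edgeR, adjusted p = 0.00239). Without iKO 2 and iKO 5 it was 0.54 ± 0.0735 (SE; adjusted p = 0.000210), so the rise was smaller and the call held.

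Tgfbr1 (ENSMUSG00000007613, chromosome 4, 47353222 to 47414931), the kinase that acts on the Smads, was at 71.8, 66, 71.4, 74.6, 61.4 and 74.8 CPM in Ctrl and at 78.5, 67.4, 81.1, 80.3, 73.4 and 79.5 CPM in iKO. The groups overlapped, with 4 iKO libraries above all Ctrl libraries. The difference was 0.13 (log2), with an interval from -0.005 to 0.27 (edgeR, adjusted p = 0.105). It passed the threshold without iKO 2 (0.17, adjusted p = 0.0457) and without iKO 2 and iKO 5 (0.19, adjusted p = 0.0389). The ratio of Tgfbr2 to Tgfbr1, per length, was 0.669 to 0.904 in Ctrl and 0.909 to 2.29 in iKO, with the highest values, 2.29 and 1.98, in iKO 2 and iKO 5.

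Downstream of the receptors, Smad3 (ENSMUSG00000032402, chromosome 9, 63646767 to 63757994) was at 36.3, 38.4, 34.3, 34.6, 29.0 and 34.3 CPM in Ctrl and at 48.8, 46, 41.1, 39.7, 50.6 and 54.6 CPM in iKO. Its rise was the smallest of the 6 (log2 fold change 0.44 ± 0.088, SE; edgeR, adjusted p = 0.00118), yet the groups did not overlap. Unlike Tgfb1 and Inhba, Smad3 in iKO 1 was not the lowest of the iKO libraries.

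Both feedback genes rose. Smad7 (ENSMUSG00000025880, chromosome 18, 75367529 to 75395935), the inhibitory Smad, was at 11.8, 14.1, 10, 12, 12.3 and 12.9 CPM in Ctrl and at 14.9, 24.9, 22.3, 23.5, 25.6 and 17.1 CPM in iKO. Its log2 fold change was 0.81 ± 0.13 (SE; edgeR, adjusted p = 0.000319), with iKO 1 and iKO 6 nearest to Ctrl. Skil (ENSMUSG00000027660, chromosome 3, 31095058 to 31122577) was at 42.0, 38.2, 36.1, 42.1, 32.8 and 44.2 CPM in Ctrl and at 45.5, 60.7, 61.6, 92.1, 86.4 and 75.6 CPM in iKO. Its log2 fold change was 0.84 ± 0.15 (SE; edgeR, adjusted p = 0.000696). Here iKO 1 lay just above the highest Ctrl library, Ctrl 6. The ratio of Smad7 to Smad3, per length, was 0.357 to 0.520 in Ctrl and 0.619 to 0.728 in iKO 2 to 5, but 0.374 in iKO 1 and 0.383 in iKO 6.

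The lengths used count all annotated exon bases of a gene, which can exceed the transcript expressed, so the order between genes is approximate. Per length, Tgfbr1 was the highest of the 9 genes in Ctrl (10.7 ± 0.805 CPM per kb, SD, n = 6). It was followed by Tgfbr2 (8.50 ± 0.478), Smad3 (6.22 ± 0.559), Tgfb1 (4.95 ± 0.878) and Skil (4.05 ± 0.444). Below them were Tgfb3 (3.50 ± 0.435), Smad7 (2.69 ± 0.301), Tgfb2 (1.96 ± 0.136) and Inhba (0.346 ± 0.0682). In that order the ranges of Smad3 and Tgfb1, Tgfb1 and Skil, Skil and Tgfb3, and Tgfb3 and Smad7 overlapped. In iKO the order opened with Tgfbr2 (15.9 ± 5.58), Tgfb1 (12.4 ± 3.91) and Tgfbr1 (11.7 ± 0.810), whose ranges overlapped, and Inhba reached 1.80 ± 0.834, close to Tgfb2 (1.90 ± 0.575).

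Tgfb1 and Tgfbr2 were set beside scores of other cell types, library by library. The leukocyte score, the mean log2 CPM of the 10 leukocyte markers, was 0.329 to 2.02 in 5 Ctrl libraries, 4.40 in Ctrl 5, 4.11 in iKO 1 and 6.54 to 7.32 in iKO 2 to 6. Tgfb1 was at 32.6 CPM in Ctrl 5 and 31.5 CPM in iKO 1, libraries of different genotype and like leukocyte score. Tgfbr2 in these 2 libraries was at 69.6 and 97.9 CPM, and Smad3 at 29.0 and 48.8 CPM. In Ctrl 5, the Ctrl library with the highest leukocyte score, Smad3, Skil (32.8 CPM) and Tgfbr1 (61.4 CPM) were the lowest of Ctrl, and Inhba (2.12 CPM) was within the range of the others.

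**Figure D3:**
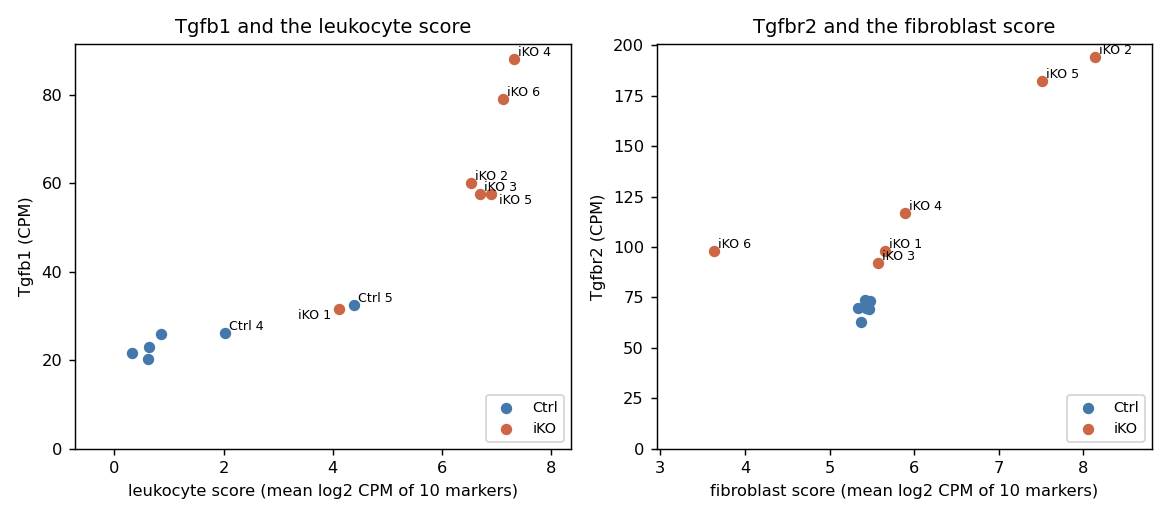
Left, Tgfb1 (CPM) against the leukocyte score; right, Tgfbr2 (CPM) against the fibroblast score; each score is the mean log2 CPM of 10 marker genes, and each point is 1 library, blue for Ctrl and orange for iKO. Ctrl 5 and iKO 1 lie beside each other on the left, and iKO 2 and iKO 5 stand apart at the upper right of the right panel.

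With the leukocyte score as a term of the fit, 1 of the 9 genes stayed past the threshold, against 6.77% of all tested genes called higher in that fit. It was Smad3, which went from 0.44 to 0.73 on the log2 scale (edgeR, adjusted p = 0.0179). Tgfb1 went from 1.32 to 0.064 ± 0.299 (SE; adjusted p = 0.917). The others kept more of their value with wide errors: Inhba 1.68 ± 0.901 (adjusted p = 0.251), Tgfbr2 0.76 ± 0.462 (0.322), Smad7 0.49 ± 0.312 (0.338) and Skil 0.49 ± 0.380 (0.446). Score and group are nearly the same split here, so this fit rests mainly on Ctrl 5 and iKO 1. With the fibroblast score as a term, the 6 calls held (22.9% of all tested genes were higher), and Tgfbr2 went from 0.90 to 0.68 and Inhba from 2.38 to 2.11. Which cells gave the RNA of each gene was not tested.

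**Figure D4:**
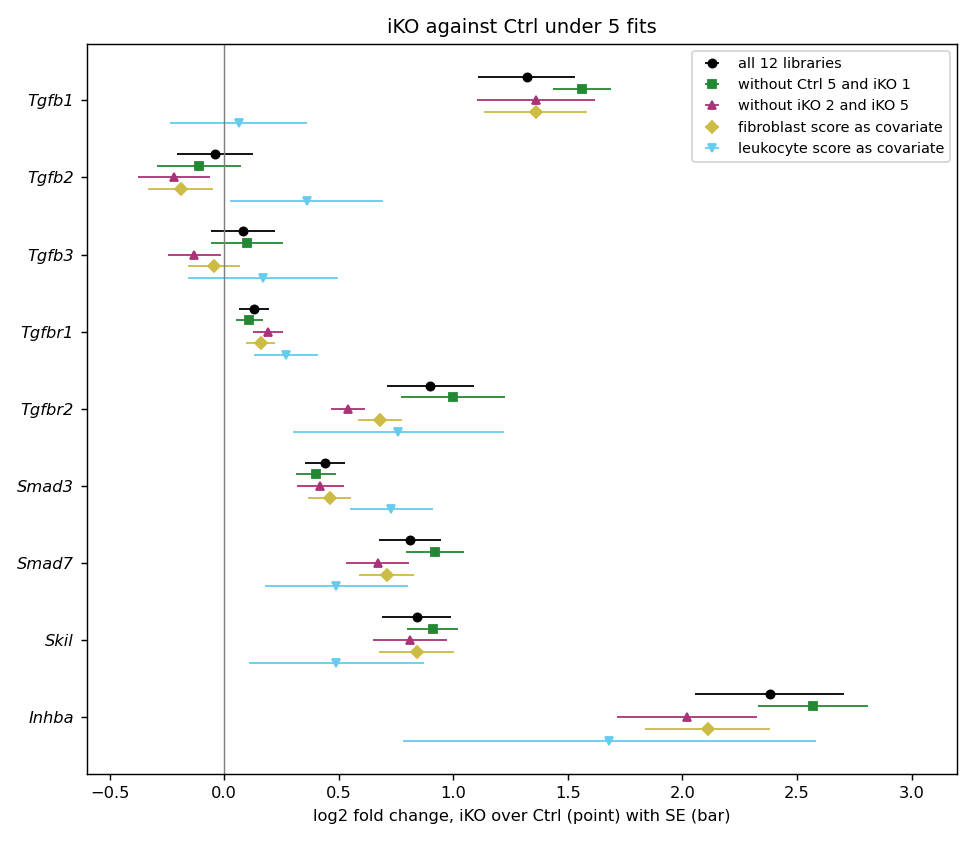
Log2 fold change of iKO over Ctrl (horizontal axis, points) with its SE (bars) for each gene under 5 fits, named in the legend. Tgfb1 falls to 0.064 with the leukocyte score as a covariate, Smad3 rises from 0.44 to 0.73, and Tgfbr2 is lowest, at 0.54, without iKO 2 and iKO 5.

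Wider lists of the pathway were described by counts, with 28 of 69 tested genes higher and 2 lower (25.0% and 21.4% of all tested genes). Of the genes that store and release latent TGF-beta 7 of 11 were higher and none lower, with a median log2 fold change of 1.16. Thbs1, whose product thrombospondin 1 can activate latent TGF-beta, averaged 42.8 ± 5.06 CPM in Ctrl and 182 ± 77.8 CPM in iKO (SD, n = 6), higher by 2.09 ± 0.33 (log2, SE). Nrros, which anchors latent TGF-beta on myeloid cells, rose by 1.79, and Furin, the protease that cleaves the precursor, by 1.16 (edgeR, adjusted p = 0.000288 and 2.23e-05). Mmp14, a membrane matrix protease, rose by 0.27. The latent TGF-beta binding proteins Ltbp1 and Ltbp4, named after their values were seen, were at 1.36 and 1.16. Ltbp1 was at 35 and 32 CPM in iKO 2 and iKO 5, the libraries high in fibroblast markers, and at 5.36 CPM in iKO 6, below all Ctrl libraries (6.20 to 6.89). Ltbp4 was at 104 CPM in iKO 2 and 18.2 to 42.4 CPM in the other iKO libraries. The part of fibroblasts in these values was not tested. Lrrc32 (GARP), the anchor on regulatory T cells and platelets, rose by 1.53 and lost its call without iKO 2 and iKO 5 (0.70, adjusted p = 0.0590). It also lost it under limma voom (1.24, adjusted p = 0.0501).

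Of 11 other receptor genes 6 were higher and 1 lower (25.0% and 21.4% of all tested genes), with a median of 0.21. The type I receptors Acvrl1 (ALK1) and Acvr1b (ALK4, used by activin) rose by 0.34 and 0.57, the BMP receptor Bmpr2 by 0.48, the activin receptor Acvr2b by 0.47 and the co-receptor Eng by 0.21. Tgfbr3 (betaglycan), which presents ligand to Tgfbr2 and was named after its value was seen, was at 1.25 (edgeR, adjusted p = 0.0226). It was highest in iKO 2 (36.5 CPM) and iKO 5 (34.8 CPM), and in iKO 6 (5.48 CPM) it lay below all Ctrl libraries. The call of Eng ended under upper quartile scaling (0.0889), with no filter on low counts (0.110) and without iKO 2 and iKO 3 (0.0754). The 1 that fell, named after its value was seen, was Bambi, a decoy receptor, at -0.35 (edgeR, adjusted p = 0.0352). Of 16 other Smads and regulators 5 were higher and none lower (median 0.099), a share of higher genes not far from the 25.0% of all tested genes. The 5 were the ubiquitin ligases Smurf1 (0.74) and Smurf2 (0.21), the corepressors Tgif1 (1.18) and Ski (0.29), and the BMP transducer Smad1 (0.26). Smad2 and Smad4, the partners of Smad3, named after their values were seen, were at 35.5 ± 2.24 and 36.5 ± 1.69 CPM and at 85.4 ± 4.57 and 90.1 ± 4.74 CPM in Ctrl and iKO (SD, n = 6), and neither passed (edgeR, adjusted p = 0.625 and 0.244).

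Among 10 other ligands and antagonists 2 were higher and 1 lower (median 0.99), no more than the 25.0% and 21.4% of all tested genes. Grem1, a BMP antagonist, had 64 counts in Ctrl and 425 in iKO (log2 fold change 3.02, 3.96 without Ctrl 5 and 2.38 without iKO 2). Inha, the inhibin alpha subunit, rose by 0.46 and Gdf11, a relative of myostatin, fell by 0.32 (edgeR, adjusted p = 0.0278 and 0.0447). The call of Gdf11 ended without any 1 Ctrl library (0.0725 to 0.111) or iKO 3, 4 or 5 (0.0556 to 0.0917). It also ended with DESeq2 size factors (0.0520), the stricter filter (0.0535) and the fibroblast covariate (0.0616). The same held without iKO 2 and iKO 3 (0.109) and without iKO 2 and iKO 5 (0.0527). Calls also ended for Inha without Ctrl 1, iKO 2 or iKO 4 (0.0520 to 0.0670), for Acvr2b without iKO 4 (0.0555) and for Smurf2 without iKO 5 (0.0614) or iKO 6. With no filter on low counts they ended for Smad1 (0.0700), Smurf2 (0.132), Acvr2b (0.0685) and Inha (0.0806), and under upper quartile scaling for Smurf2 (0.0877) and Inha (0.0546). Without iKO 2 and iKO 3 they ended for Smurf2 (0.0651) and Inha (0.0759). Smurf2 also lost its call without iKO 2 and iKO 5 (0.0972), and Acvr2b without Ctrl 5 and iKO 1 (0.0525).

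Genes commonly read as targets of the pathway were split. Of 21 tested 8 were higher and none lower (25.0% and 21.4% of all tested genes), with a median of 1.04. Tgfbi, a matrix protein named for its induction by TGF-beta, was at 4.62, 2.71, 2.77, 6.93, 32.9 and 3.78 CPM in Ctrl and at 38.2, 310, 330, 619, 325 and 538 CPM in iKO. Ctrl 5 and iKO 1 again lay next to each other. Its log2 fold change was 5.34 ± 0.90 (SE; edgeR, adjusted p = 0.000921), and 6.46 without Ctrl 5. With the leukocyte score in the fit it was 0.68 ± 0.405 (SE; edgeR, adjusted p = 0.313). Tgm2, a transglutaminase, also had its highest Ctrl value in Ctrl 5 (9.62 CPM) and its lowest iKO value in iKO 1 (14.1 CPM). It rose by 5.54, or 6.42 without Ctrl 5, and stood at 1.17 with the leukocyte score in the fit (edgeR, adjusted p = 0.297). Of its exon bases 21.8% are shared with other genes. Fn1, which encodes fibronectin, rose by 1.77 and by 1.07 without iKO 2 and iKO 5. Junb, a subunit of AP-1, rose by 1.11, and Id1, an inhibitor of helix-loop-helix factors, by 1.73, which fell to 0.93 without iKO 2 and iKO 3 (adjusted p = 0.0707).

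Ctgf and Col1a1, targets well known in fibroblasts, did not pass in the edgeR test and are named here after their values were seen. Ctgf, a matricellular protein gene, differed by -0.054 (log2, adjusted p = 0.876). Col1a1, a collagen gene, was at 824 to 961 CPM in Ctrl, at 5291 and 3142 CPM in iKO 2 and iKO 5, and at 247 CPM in iKO 6 (adjusted p = 0.213). Its iKO libraries had the same order as the fibroblast sums, to which Col1a1 itself adds. With the leukocyte score in the fit, 5 of the 69 pathway genes passed, all higher, a share near the 6.77% of all tested genes called higher in that fit. Among them were Bmpr2 (1.03, adjusted p = 0.0123), Smurf1 (0.81, 0.0152), Smurf2 (0.50, 0.0387) and Eng (0.40, 0.0474). Of the pathway genes named for their small p, 4 kept their call in that fit and 19 lost it. Thbs1 was at 0.65 (edgeR, adjusted p = 0.639) and Nrros at 0.31 (0.708). That fit rests mainly on Ctrl 5 and iKO 1.

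**Figure D5:**
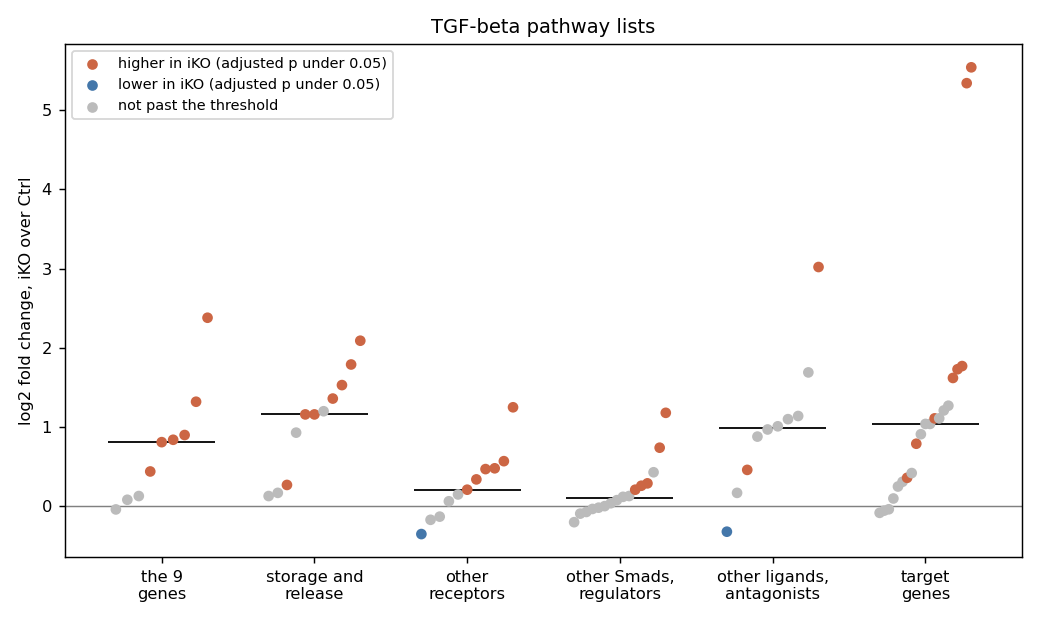
Log2 fold change of iKO over Ctrl (vertical axis) for the 9 genes and the tested genes of 5 other pathway lists (horizontal axis); points are genes, coloured by call, and black lines list medians. Storage and release genes have the highest median, 1.16, other Smads and regulators the lowest, 0.099, and Tgfbi (5.34) and Tgm2 (5.54) stand apart.

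Within groups the 9 genes did not move as one. Their alikeness was described by Pearson's r of log2 CPM after subtracting each group's mean, over 12 libraries that also share cell makeup. Tgfbr2 went with Tgfb3 (0.79) and Smad7 with Inhba (0.78). The receptor genes Tgfbr1 and Tgfbr2 went opposite ways (-0.66), as did Tgfb1 and Tgfb2 (-0.62). Among tested protein-coding genes, those most like Tgfbr2 were Sparc (0.97), a matrix glycoprotein gene, Errfi1 (0.97) and Lrrn4cl (0.96). For Tgfb1 they were Mis18a, Grn and Unc13d (0.97 each), of which Grn encodes progranulin and Unc13d a protein of granule release. For Inhba they were Adam19 (0.96), Mospd2 and Creb3l3 (0.95 each), for Skil Aftph (0.96), Lims1 and Fem1c (0.95 each), for Smad7 Mbd1 (0.95), Ndufb2 (0.94) and Ckm (0.91), and for Smad3 Spin1 (0.93), Fbxw11 (0.87) and Amot (0.86). For the 3 genes that did not pass they were Kcnn1, Igdcc4 and Arhgef40 (0.93 each, Tgfb2), Cachd1 (0.95), Lrp2bp (0.93) and Mettl27 (0.92, Tgfb3), and Greb1 (0.90), Trove2 (0.89) and C330007P06Rik (0.88, Tgfbr1). The highest of so many genes are high by selection, so these values only describe these libraries.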

How the data were processed

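Poly-A RNA of 12 libraries (6 per group, 1 sequencing batch) was counted per gene by the authors, who deposited raw counts. Per the submitters' processing notes the build was mm10. For the aligner, the counter and its strand setting, these were not given in the sources used here. The labels describe a library that keeps no strand. The deposited table also holds each gene's span and length, which gave the CPM per kb.

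Counts were tested with edgeR 4.0.16 (quasi-likelihood, robust, TMM, all 12 libraries, group as the only term) with Benjamini-Hochberg adjustment over 16164 genes that passed filterByExpr (minimum count 10, minimum total 15). Libraries of 1 group differed by more than sampling noise (lowest chi-square per degree of freedom 7.47). A count of 3, the floor, equals 0.0655 to 0.101 CPM, and floors cover counting error only. Log2 CPM used a prior count of 2. The fit was tried on simulated counts with changes of 0.5, 1 and 2 on the log2 scale. It recovered 47.8, 79.1 and 92.4% of these, with 7 false calls, so a small change can go uncalled.

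The members and lists were chosen with earlier results of these data known. Named are the 9 genes, up to 5 called genes of each list with the smallest p, and for each of the 9 the 3 most alike protein-coding genes. Alternatives were DESeq2 1.42.0, limma voom 3.58.1, other scalings, filters, covariates and left-out libraries. The fibroblast covariate and leaving out iKO 2 and iKO 5 were chosen after seeing the data. Promoters are from RefSeq and exon overlaps from the reference annotation of the same build.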

Additional observations from a re-analysis of the deposited data

Results flagged for a closer look

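A library was marked where its gap to the nearest of its group, divided by the group's range, was above 0.625, Dixon's limit for 6 libraries. This held for 9 of 64 groups tested and for none of the 9 genes. Chance gives about 1 in 20 for independent groups. These groups are genes of the same 12 libraries, so that rate cannot be set against the count. Ctrl 5 was the highest Ctrl library for Nrros (21.1 CPM), Thbs1 (52.5), Mmp14 (317), Grem1 (0.937), Junb (163), Tgm2 (9.62) and Tgfbi (32.9). Ctrl 5 also had the highest leukocyte score of Ctrl, 4.40, and the part of those cells in these values was not tested. In iKO 2, which had the highest fibroblast sum, Grem1 (6.28 CPM) and Id1 (4.88) were the highest of iKO.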

How the results depend on the processing

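The 6 calls among the 9 genes were kept under both other scalings, DESeq2, limma voom, both other filters, every left-out library or pair of libraries and the fibroblast covariate. Leaving out 1 library in turn gave 6 to 7 called members, 26 to 33 other pathway genes (30 with all libraries) and 6630 to 8234 of all genes (7501). With the leukocyte covariate, 1 member, 5 other pathway genes and 2274 of all genes passed, and this fit rests mainly on Ctrl 5 and iKO 1. Tgfb2 turned to 0.36 with the leukocyte covariate and ranged from -0.17 to 0.038 with 1 library left out. Tgfb3 turned to -0.044 with the fibroblast covariate and to -0.13 without iKO 2 and iKO 5, and ranged from -0.022 to 0.13 with 1 library left out. The cause was not tested, and neither gene passed under any alternative. Of the 9 genes Inhba had the fewest counts (547 in Ctrl). How counting error and differences between libraries share in each gene's spread was not tested.

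The labels number the libraries 1 to 6 in both groups. Deviations of same-numbered libraries correlated at -0.129 to 0.249, so the numbers were not taken as pairs. With the replicate block, 6473 of all genes, 6 members and 21 other pathway genes passed. By this block Id1 lost its call (adjusted p = 0.0513), as did Acvr2b (0.0674), Smurf2 (0.0593) and Inha (0.0734).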
